A study of Ovis aries with 16 samples.

Results

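The transcripts described here are 18 of the 35219 in the deposited table of sheep perirenal adipose tissue. They were chosen as the transcripts that the study lists as higher in MFGR as compared to MC under 3 KEGG pathways, which are Metabolic pathways, Chemical carcinogenesis and Metabolism of xenobiotics by cytochrome P450. The 3 lists hold 20 transcripts together. ENSOART00020016887 was taken out because it is also listed under PPAR signaling, and ENSOART00020001447 because it is also listed under oxidative phosphorylation. Of the 18, 14 are listed under Metabolic pathways alone, and 3 under all 3 pathways. ENSOART00020028055 is in both of the drug and chemical lists and not in the metabolic list, so that 4 transcripts are called xenobiotic below. The same 4 are in both of those lists.

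The libraries are from near-term singleton fetuses of crossbred Columbia-Rambouillet ewes, 1 library per fetus and 4 fetuses per group. The growth-restricted male (MFGR) and female (FFGR) fetuses came from ewes kept at high ambient temperature for a part of gestation. The heat ended well before the tissue was collected near term. In this model hyperthermia leads to placental insufficiency. The control male (MC) and female (FC) fetuses came from pair-fed ewes at normal temperature. The restriction is thus that of a mother heat-stressed earlier in gestation, and heat and placental insufficiency cannot be told apart in these groups. Each library is bulk perirenal fat, so that fewer cells of a type and less RNA per cell cannot be told apart either.

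Perirenal fat of the sheep fetus is largely brown fat. Its adipocytes store lipid and burn it for heat through UCP1 around the time of birth, and both tasks depend on enzymes of lipid, sugar and amino acid metabolism. The KEGG map of metabolic pathways collects such enzymes from all of intermediary metabolism. Xenobiotic metabolism works in phases, in which cytochrome P450 and other oxidoreductases add or expose a reactive group and transferases then join glutathione or glucuronic acid to it. These enzymes are most abundant in liver, many of them also act on steroids, retinoids or aldehydes of the body itself, and the carcinogenesis map shares most of its enzymes with the P450 map because the same reactions can activate carcinogens.

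The deposited table gives no gene names, and the reference table at hand pairs 0 of the 18 transcripts with a gene. Which enzyme each transcript encodes is therefore not given here, and the name of the set could not be checked against the genes. The tissue was checked on 9 transcripts that the study's own marker table names. The 3 brown adipocyte markers, UCP1 and 2 transcripts of CIDEA, summed to 1416 to 4512 TPM across the 16 libraries, and none of the 9 markers was at 0 in any library. Each library adds up to 1000000 TPM. TPM keeps no read numbers, and the sequencing depth behind a value is therefore unknown. The 11 mitochondrial transcripts took 39.3% ± 3.55 of the TPM in MC and 33.6% ± 4.02 in MFGR, and in females 33.4% ± 4.28 (FC) and 32.2% ± 4.92 (FFGR) (SD, n = 4 each). A fall in that share raises the TPM of every other transcript. Values rescaled without the mitochondrial transcripts are given beside most medians of the 18 transcripts and beside some other results.

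All 18 transcripts had values above 0 in all 16 libraries. TPM is corrected for transcript length, so that levels can be compared between transcripts. The most abundant was ENSOART00020036185, with a mean of 573 TPM over the 16 libraries, followed by ENSOART00020025654 with 312 TPM, ENSOART00020028413 with 303 TPM and ENSOART00020022203 with 294 TPM. These 4 held 59.4% of the summed TPM of the set in MC and 62.4% in MFGR, and 65.8% and 69.5% in the female groups FC and FFGR. The lowest was ENSOART00020021152, with a mean of 8.10 TPM. A level of 20 TPM in at least 3 libraries was required for testing, which 15 of the 18 reached. ENSOART00020021152, ENSOART00020024459 and ENSOART00020033838 did not, and their values come from a fit with a limit of 1 TPM. Among the 15, ENSOART00020035799 reached 20 TPM in 5 libraries, ENSOART00020028055 in 7 and ENSOART00020020067 in 12. None of these libraries was MC for any of these transcripts, so that they passed only through groups with a higher mean than MC.

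Among the 4 xenobiotic transcripts, ENSOART00020022203 was the most abundant. Its level was 148, 123, 106 and 157 TPM in the 4 MC libraries and 376, 297, 424 and 312 TPM in the 4 MFGR libraries. It was 425, 195, 253 and 437 TPM in FC and 368, 444, 403 and 241 TPM in FFGR. Every library outside MC lay above every MC library, and FC was split into a lower and a higher pair.

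ENSOART00020002217 had another pattern. Its level was 153, 173, 134 and 223 TPM in MC and 213, 298, 281 and 249 TPM in MFGR. In the female groups it was 133, 144, 154 and 131 TPM in FC and 137, 128, 152 and 159 TPM in FFGR. The 8 female libraries lay within 128 to 159 TPM, the 4 MFGR libraries all lay above them, and MC overlapped with both.

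ENSOART00020021006 is less abundant. It had 22.3, 37.9, 28.6 and 35.3 TPM in MC, 50.3, 63.4, 44.5 and 35.8 TPM in MFGR, 41.4, 29.5, 17.9 and 29.1 TPM in FC and 60.2, 50.0, 32.3 and 21.1 TPM in FFGR. All 4 groups overlapped. ENSOART00020028055, the 1 transcript outside the metabolic list, had 11.8, 8.66, 19.4 and 15.5 TPM in MC, 18.5, 28.7, 31.7 and 24.4 TPM in MFGR, 25.0, 15.9, 17.1 and 27.0 TPM in FC and 26.4, 16.4, 20.1 and 16.1 TPM in FFGR. MC3 at 19.4 TPM lay above the lowest MFGR library, and here too the 4 groups overlapped.

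Among the other 14 transcripts, ENSOART00020025654 had 89.6, 170.2, 264 and 141 TPM in MC, 341, 289, 391 and 708 TPM in MFGR, 301, 373, 351 and 298 TPM in FC and 211, 364, 369.6 and 323 TPM in FFGR. MC lay under MFGR and FC without overlap. ENSOART00020035799 had 8.68, 12.5, 16.9 and 6.86 TPM in MC and 62.5, 21.0, 17.6 and 24.1 TPM in MFGR, and the gap between the groups was narrow apart from MFGR1. It had 17.3, 9.46, 43.7 and 21.7 TPM in FC and 14.9, 18.2, 13.7 and 14.4 TPM in FFGR. ENSOART00020019560 had 260.4, 239.7, 315 and 44.6 TPM in MFGR. The level of MFGR4 was under that of all 4 MC libraries, which had 78.0, 60.7, 138 and 83.2 TPM, and 5.60 times from the median of its group. The female groups had 113, 113, 178 and 294 TPM in FC and 202, 142, 85.7 and 136 TPM in FFGR.

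**Figure D1:**
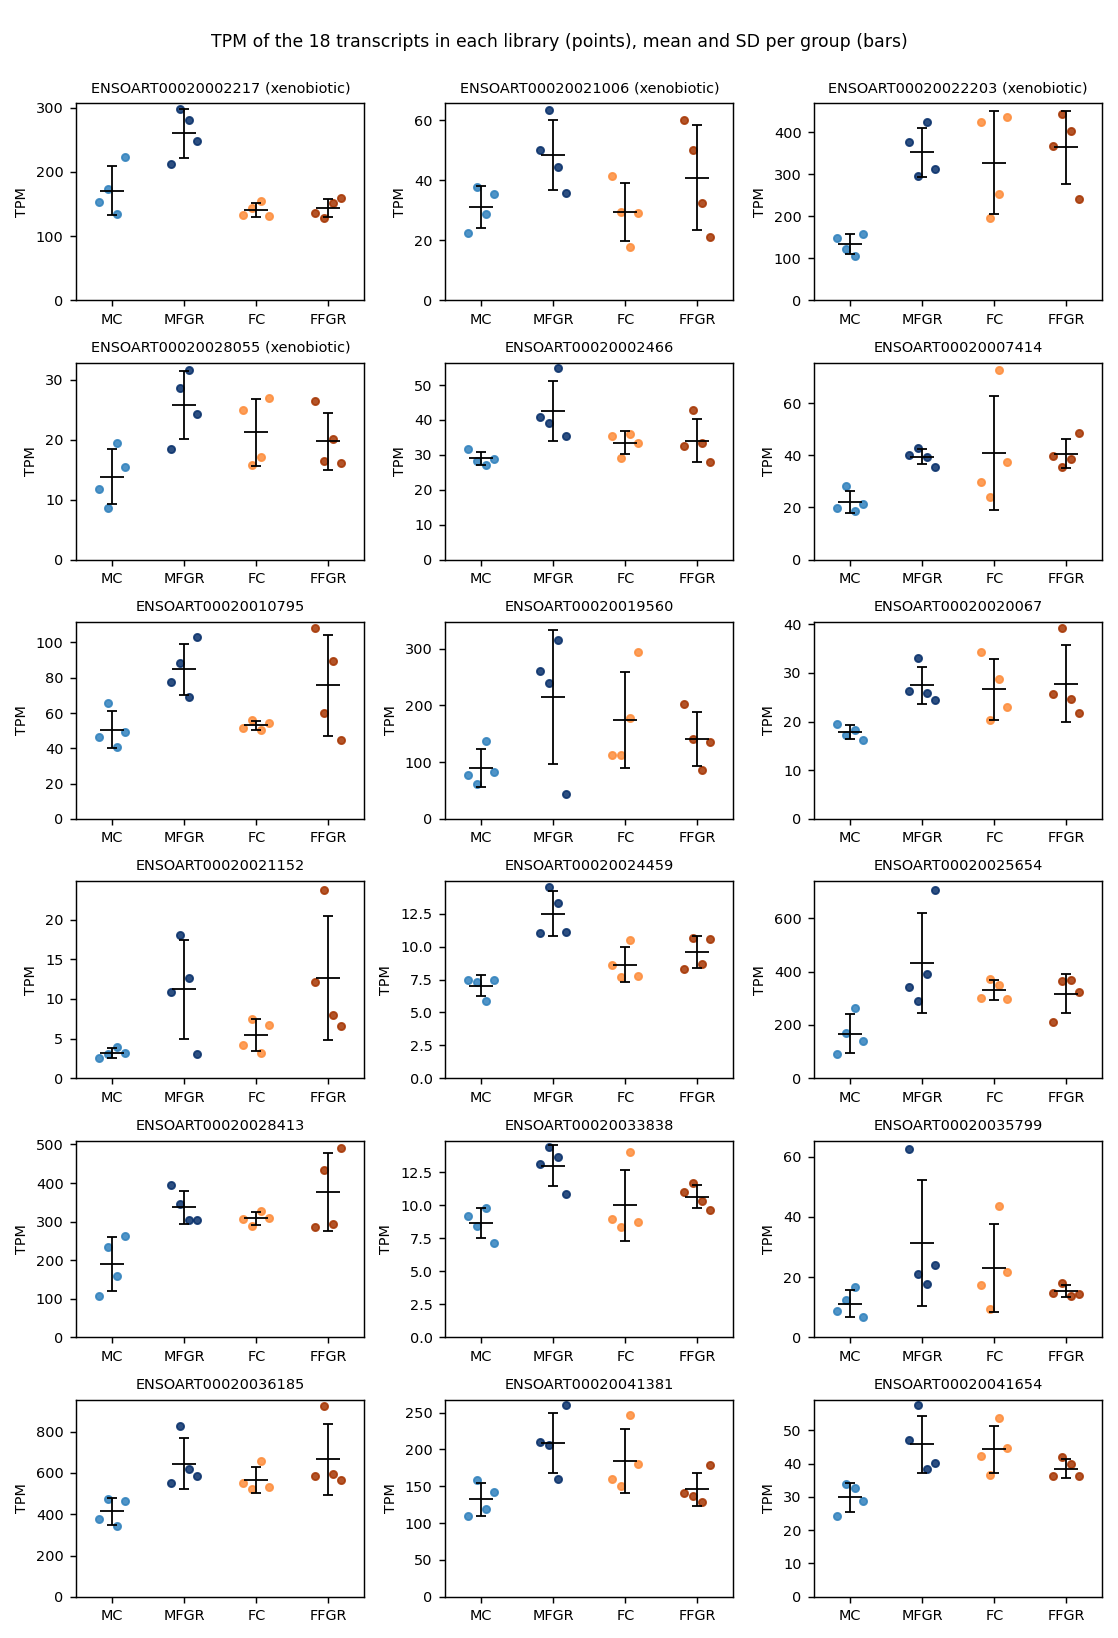
TPM (linear axis from 0) of each of the 18 transcripts in each of the 16 libraries (points), with the mean (long bar) and SD (short bars) of each group of 4 fetuses. MC has the lowest mean in 16 panels, and the single low MFGR point of ENSOART00020019560, at 44.6 TPM, and the single high MFGR point of ENSOART00020035799, at 62.5 TPM, stand apart from their groups.

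Comparison of MFGR with MC asks how growth restriction relates to expression in males. The 18 transcripts were chosen on this comparison, so that its values are a description and carry no test. On the scale of log2(TPM + 1) all 18 were higher in MFGR, which the choice itself fixes. The median difference was 0.74, and 0.63 after rescaling without the mitochondrial transcripts. The range before rescaling was 0.52 to 1.39. The difference was over 2-fold for 4 transcripts, with 2.63-fold for ENSOART00020022203, 2.62-fold for ENSOART00020025654, 2.56-fold for ENSOART00020021152 and 2.44-fold for ENSOART00020035799. At the other end, ENSOART00020002466 was at 1.44-fold and ENSOART00020033838 at 1.45-fold in the values used here, just under the 1.5-fold that the study required, and ENSOART00020020067 and ENSOART00020041654, each with a log2 difference of 0.59, were just above it. Transcripts just outside the lists were not analysed here, since the lists name only transcripts that passed.

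All MFGR libraries were above all MC libraries in 13 of the 18 transcripts, among them 11 of the 15 tested ones, where 5.47% of all 4574 tested transcripts had MFGR wholly above MC. Of the 15, 1 (ENSOART00020022203) met the threshold used here for a call, an adjusted p under 0.05 and a fold above 1.5, as did 0.219% of all tested transcripts in that direction. Nothing is read from these shares, because the transcripts were picked on the same libraries. The 5 that overlapped were the xenobiotic ENSOART00020002217, ENSOART00020021006 and ENSOART00020028055, and ENSOART00020019560 and ENSOART00020021152. In the last pair the overlap came from MFGR4, whose ENSOART00020021152 level of 3.10 TPM was among those of MC, against 10.9, 18.1 and 12.7 TPM in the other MFGR libraries. Without MFGR4, the log2 difference of ENSOART00020019560 went from 1.00 to 1.64.

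The choice favours transcripts in which MFGR libraries lie above MC, so that the following counts by library and sums are a description. MFGR2 and MFGR3 were above every MC library in 18 of 18 transcripts, MFGR1 in 16 and MFGR4 in 15. No share over all tested transcripts was computed for these counts, and nothing is read from them. The summed TPM of the 18 transcripts was 1522 ± 192 in MC and 2832 ± 74.8 in MFGR (SD, n = 4 each). For females the sums were 2328 ± 221 (FC) and 2482 ± 296 (FFGR). The sum in MFGR was thus 1.86 times that in MC, and 1.70 times after rescaling without the mitochondrial transcripts. The xenobiotic transcripts and the others were also summed apart. The 4 xenobiotic transcripts summed to 349 ± 59.4 TPM in MC and 686 ± 68.3 TPM in MFGR, and for females to 519 ± 124 TPM (FC) and 568 ± 89.5 TPM (FFGR). The other 14 summed to 1173 ± 168 TPM in MC and 2146 ± 77.6 TPM in MFGR, and for females to 1809 ± 199 TPM (FC) and 1914 ± 264 TPM (FFGR). The lowest MFGR library had more of each sum than the highest MC library, and the FC and FFGR sums overlapped.

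**Figure D2:**
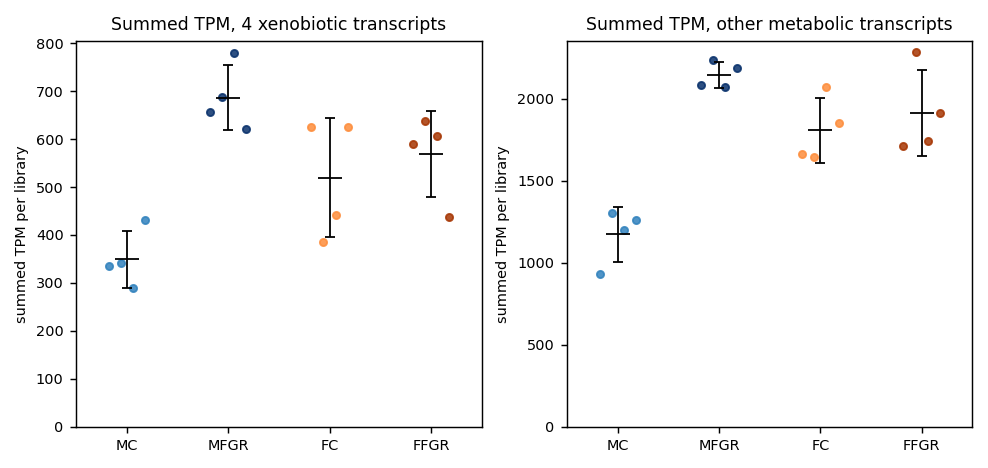
Summed TPM per library (points) of the 4 xenobiotic transcripts (left) and the 14 others (right) by group, with the mean and SD of 4 fetuses. In both panels MC is lowest and MFGR lies wholly above MC, which the choice of the transcripts favours. FC and FFGR overlap, with means of 519 and 568 TPM on the left and 1809 and 1914 TPM on the right.

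Markers of cell types in the tissue were summed in the same libraries. The 3 mature adipocyte markers (FABP4, ADIPOQ and the leptin transcript) summed to 3751 to 6247 TPM in MC and 4977 to 11895 TPM in MFGR, and the 2 preadipocyte transcripts of THY1 to 36.9 to 81.7 TPM in MC and 17.4 to 39.2 TPM in MFGR. None of the 9 markers met the threshold for a call between MFGR and MC, and none was at 0. FABP4, a fatty acid carrier of mature adipocytes, differed by 1.28 on the log2 scale between MFGR and MC (adjusted p = 0.145, limma), and it was the only one of the 3 with a higher mean in MFGR (6015 TPM) than in MC (2445 TPM). The hormone transcripts ADIPOQ and leptin had differences of -0.20 and -0.34 (adjusted p = 0.591 and 0.683, limma). Between FFGR and FC, FABP4 differed by -0.98 (adjusted p = 0.652, limma). In the female groups the mature adipocyte markers summed to 4851 to 12155.5 TPM in FC and 4766 to 5162 TPM in FFGR, and the THY1 transcripts to 27.4 to 88.7 TPM in FC and 14.9 to 84.5 TPM in FFGR. Between males and females, 2 of the 9 markers were called, both lower in males. The first was 1 transcript of THY1 (-2.53), where 30.3% of all tested transcripts were called. The other transcript of THY1 went the other way, with 0.76 (adjusted p = 0.0613, limma). The second was HOXC9, which is under 20 TPM. Its call came from the fit with a limit of 1 TPM, where 4016 of 17291 transcripts were called. The values of 1 CIDEA transcript came from that fit as well. The part of cell composition in the values of the 18 transcripts was not tested.

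FFGR as compared to FC tests growth restriction in libraries on which none of the 18 transcripts was listed. The FC libraries entered the choice through the study's list for MC against FC that took out ENSOART00020001447. The study's filter and normalization came before its lists and may have used the FC and FFGR libraries as well. None of the 15 tested transcripts was called, and 0 of all 4574 transcripts (0%) were. Without adjustment, 0 of the 15 had a p under 0.05 in limma, against 337 of all tested transcripts (7.37%). The smallest adjusted p among the 15 was 0.715 (limma), for ENSOART00020010795. The ranges of FFGR and FC overlapped for all 18, where they were apart for 3.85% of all tested transcripts. The median log2 difference was 0.079 over the 18 and 0.029 over the 15, and -0.020 over all tested transcripts. After rescaling without the mitochondrial transcripts it was 0.054 over the 18 and -0.042 over all tested transcripts. Of the 18, 12 were above 0 and 6 below before rescaling.

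How large a change these data would leave possible differs between the transcripts. The 95% interval of the difference, from limma with 12 residual degrees of freedom, held 0 for 17 of the 18. It lay wholly under a 1.5-fold rise (0.58 on the log2 scale) for 11, and within 1.5-fold in both directions for 7. For the other 7 a rise of 1.5-fold is inside the interval. ENSOART00020002466 and ENSOART00020002217 were among those with the narrowest intervals, -0.29 to 0.32 and -0.28 to 0.34. ENSOART00020025654, which differed by 1.39 between MFGR and MC, differed by -0.088 between FFGR and FC, with an interval of -0.74 to 0.57. ENSOART00020022203 differed by 1.39 in males and 0.20 in females, with an interval of -0.35 to 0.74 in females. For ENSOART00020019560 the interval was -1.35 to 0.86, so that little can be said of its size in females.

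The 1 interval without 0 was that of ENSOART00020021152, from 0.075 to 1.90 around a difference of 0.99 in the fit with the lower limit (adjusted p = 0.790, limma, 17291 transcripts). Its level was 4.25, 7.47, 3.16 and 6.73 TPM in FC and 12.1, 23.8, 7.99 and 6.55 TPM in FFGR, against 2.52, 3.09, 3.93 and 3.17 TPM in MC. Of the 4 FFGR libraries, 3 were above all of FC, and FFGR4 lay inside the range of FC. ENSOART00020010795 and ENSOART00020021006 had the next highest values, 0.43 and 0.41. FFGR was spread widely in both, with 108, 59.9, 89.6 and 44.8 TPM for ENSOART00020010795, where FC was within 50.6 to 55.8 TPM. At the low end were ENSOART00020035799 with -0.37 and ENSOART00020041381 with -0.32, and the interval of the latter was -0.70 to 0.067.

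**Figure D3:**
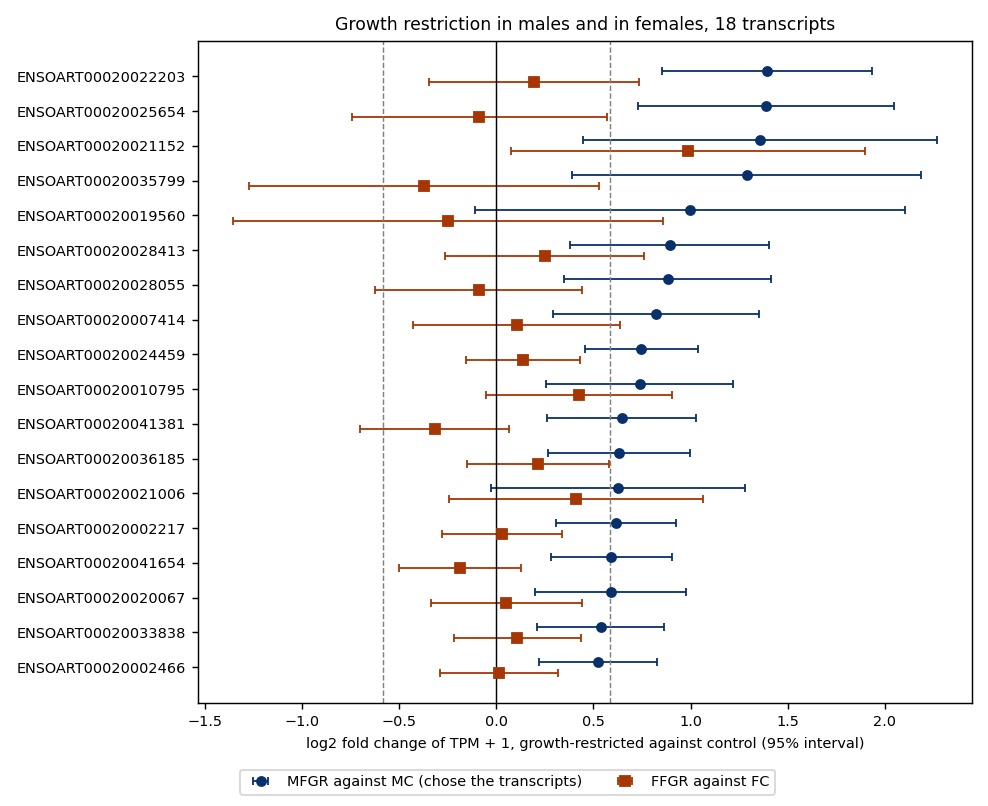
Log2 fold change of TPM + 1 with its 95% interval for each of the 18 transcripts, MFGR against MC (circles, the comparison that chose the transcripts) and FFGR against FC (squares), dashed lines marking 1.5-fold either way. The circles lie between 0.52 and 1.39 by choice, and the squares between -0.37 and 0.99 around a median of 0.079, with 17 of 18 intervals holding 0.

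The male change was larger than the female change for all 18, with a median of 0.63 for the difference of the log2 changes. This quantity contains the comparison on which the transcripts were chosen and is therefore no test of a difference between the sexes. Over all tested transcripts, 0 of 4574 (0%) passed the same threshold for that interaction, and 511 (11.2%) had an unadjusted p under 0.05 in limma.

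Sex was compared as the mean of MC and MFGR against the mean of FC and FFGR, in which the direction of MFGR against MC that chose the transcripts cancels. Restrictions remain. Of the 2 transcripts taken out, 1 was removed through a list that the study drew from MC against FC. The spread within MC and MFGR also entered the choice, and it is part of the SE here. The p-values of the chosen transcripts in this comparison are therefore a description and no independent test. Of the 15 tested transcripts, 1 was called (6.67%), against 30.3% of all tested transcripts. When the fold was left out of the threshold, 3 of the 15 differed, against 57.3% of all. The median log2 difference was -0.14 over the 18 and -0.18 over all tested transcripts. The sign of both medians depends on the scaling, since median-of-ratios scaling gave 0.052 and 0.011, and quantile normalization 0.16 and 0.096, for the 18 and for all. Rescaling without the mitochondrial transcripts gave -0.064 and -0.086. Under each of these scalings the median of the 18 lay near the median of all transcripts. Single transcripts of the 18 ranged from -0.63 to 0.55 in the main fit.

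The called transcript was ENSOART00020022203, lower in males by 1.54-fold (log2 difference -0.63, SE 0.18, adjusted p = 0.00789, limma). The difference stood between the control groups, -1.22 for MC against FC, while MFGR and FFGR differed by -0.026. The MC libraries are among those on which the transcript was chosen. The call was lost under median-of-ratios scaling, with -0.43, under quantile normalization, with -0.40, and after rescaling without the mitochondrial transcripts, with -0.55. It was lost as well without MC3, FC1, FC4 or FFGR2, in each case on the fold, with values of -0.57, -0.55, -0.54 and -0.57.

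ENSOART00020002217 was higher in males by 1.47-fold (0.55, SE 0.10, adjusted p = 0.000317, limma), which is under the 1.5-fold of a call. The difference was 0.26 between MC and FC and 0.85 between MFGR and FFGR. It kept its direction under all alternatives and exceeded 1.5-fold under median-of-ratios scaling (0.75), quantile normalization (0.83), rescaling without the mitochondrial transcripts (0.63) and library weights (0.62), and without MC3 (0.61) or MFGR1 (0.60). The third was ENSOART00020028413, the third most abundant of the set, lower in males by 1.37-fold (-0.45, SE 0.17, adjusted p = 0.0342, limma). It had 107, 234, 160.4 and 262 TPM in MC, 395, 345, 305 and 304 TPM in MFGR, 307, 288, 329 and 309 TPM in FC and 286, 435, 295 and 491 TPM in FFGR. MC lay below the other 12 libraries, and MFGR overlapped with both female groups. The 2 xenobiotic transcripts ENSOART00020021006 and ENSOART00020028055 differed between the sexes by 0.21 and -0.12, with intervals of -0.25 to 0.67 and -0.49 to 0.26.

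**Figure D4:**
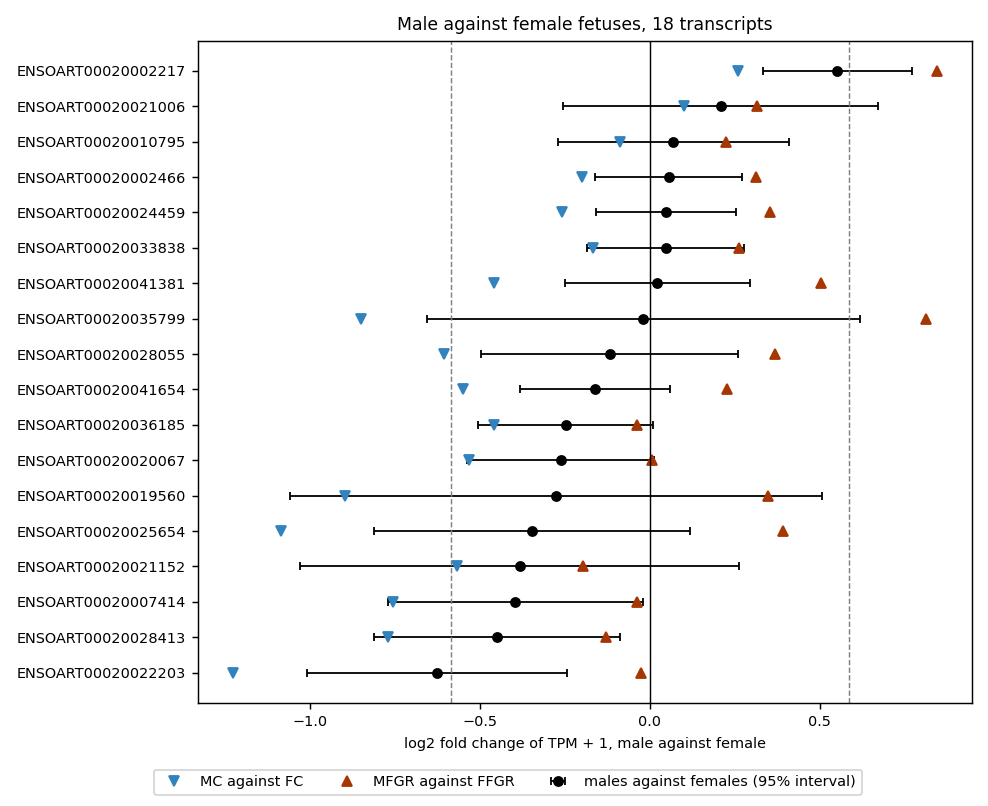
Log2 fold change of TPM + 1, males against females, for each of the 18 transcripts with its 95% interval (black), and the same between control fetuses (blue) and between growth-restricted fetuses (red), dashed lines marking 1.5-fold either way. The control difference is below 0 for 16 of the 18 transcripts and the growth-restricted difference above 0 for 13. Of all 4574 tested transcripts, 2941 have a control difference below 0 and 1677 a growth-restricted difference above 0.

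The 2 comparisons within a condition share their male libraries with the choice of the transcripts, and their values are given as a description. Between MC and FC the median difference of the 18 was -0.54, with 16 below 0. Over all 4574 tested transcripts it was -0.20, with 2941 below 0. Under median-of-ratios scaling, quantile normalization and rescaling without the mitochondrial transcripts the median of the 18 was -0.35, -0.27 and -0.42. That of all tested transcripts was -0.0095, 0.079 and -0.037. MC lay wholly under FC for 7 of the 18, among them 6 of the 15 tested ones, where 28.1% of all tested transcripts did so. Between MFGR and FFGR the median of the 18 was 0.29, with 13 above 0. Over all tested transcripts it was -0.19, with 1677 above 0. Under the same scalings, in that order, the median of the 18 was 0.47, 0.52 and 0.32. That of all tested transcripts was -0.0027, 0.087 and -0.16. MFGR lay wholly above FFGR for ENSOART00020002217 and ENSOART00020024459. Only the first is among the 15 tested ones, and 10.7% of all tested transcripts did so. MC had the lowest mean of the 4 groups in 16 of the 18, and FC in the other 2, ENSOART00020002217 and ENSOART00020021006. The highest mean was that of MFGR in 12, FFGR in 5 and FC in 1 (ENSOART00020007414). Of all tested transcripts, 2119 had a higher value in MFGR than in MC, and 60.2% of these also had their lowest mean in MC. These 2119 include rises of any size, while the 18 were chosen for a rise and lay at 0.52 or more. The shares are therefore not alike, and nothing is read from them.

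The summed TPM in MC was 0.654 times that in FC, and 0.719 times after rescaling without the mitochondrial transcripts. By library, FC1 was above every MC library in 14 of the 18 transcripts, FC2 in 8, FC3 in 13 and FC4 in 14. FFGR1 and FFGR2 were above every MC library in 14, FFGR3 in 13 and FFGR4 in 10. The choice favours low values in MC, and no share over all tested transcripts was computed for these counts. Nothing is read from them. The spread between fetuses, as the median CV of the 18, was 23.4% in FC and 23.7% in FFGR, against 15.6% and 15.3% for all tested transcripts. In MC and MFGR the median CV of the 18 was 18.9% and 19.1%, against 16.5% and 16.1%.

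The ribosome list of the same comparison, which the study also drew from MFGR against MC and which is printed with 16 transcripts, gives a second set chosen in the same way. Its median log2 difference was 0.56 between MFGR and MC and 0.20 between FFGR and FC, where 0 of the 16 were called (0% of all tested), and 7 of the 16 were called between males and females, where 30.3% of all tested transcripts were. The 2 transcripts taken out of the set differed by 1.51 (ENSOART00020016887) and 2.07 (ENSOART00020001447) between MFGR and MC, above each of the 18, and by 0.44 and 0.052 between FFGR and FC. The difference between these lists was not tested.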

How the data were processed

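The authors checked reads with FastQC 0.11.9, quantified them with Salmon against Ensembl transcripts of Oar_rambouillet_v1.0 and deposited TPM per transcript, a length-scaled share of 1000000 per library. The version of Salmon is not given in the sources used here. The deposited TPM holds no counts, so no count model was run and precision comes from the spread between fetuses of separate pregnancies. TPM values depend on all other transcripts of a library. The members are the transcripts printed in the study's KEGG lists, and the members and all lists were chosen with earlier results of these data known. Values were tested as log2(TPM + 1), which understates the folds of low transcripts, by limma 3.58.1 under R 4.3.3. The model held a mean per group (4 groups) and a prior variance that follows the level, after a filter of 20 TPM in 3 libraries (4574 transcripts). Members under it were taken from a fit at 1 TPM (17291 transcripts). P-values were Benjamini-Hochberg adjusted over all tested transcripts. All members are named, and values of every library are written out for the 4 xenobiotic members, the 4 largest folds among tested members, a member with a library over 4 times from its group median, and, chosen after the values were seen, ENSOART00020021152 and ENSOART00020028413. Brackets of 95% are limma's. The procedure was tested on simulated data. Alternatives were another pseudocount (0.1 TPM), filters, scalings, a constant prior variance, library weights, a fit of the compared groups alone, a replicate block, calls without a fold limit and leaving out each library. Promoter and protein sequences were not used here, since the reference at hand (ARS-UI_Ramb_v3.0) pairs none with these identifiers.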

Additional observations from a re-analysis of the deposited data

Results flagged for a closer look

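Of 116 groups of 4 fetuses tested for a fetus that stands apart (Dixon's criterion at 95%), 7 were marked, where chance alone would mark about 5.8. Of the 72 groups of the 18 transcripts, 4 were marked. ENSOART00020024459 was low in MC3 (5.83 TPM, others 7.35 to 7.49), and ENSOART00020033838 was high in FC3 (14.0 TPM, others 8.37 to 8.94). ENSOART00020035799 was high in MFGR1 (62.5 TPM, others 17.6 to 24.1). Without MFGR1 its log2 difference between MFGR and MC was the lowest of all its values with a library left out, 0.90 against 1.29. ENSOART00020036185, the most abundant, was high in FFGR2 (925 TPM, others 566 to 596), and so was the sum of the 18 transcripts (2924 TPM, others 2302 to 2353). Without FFGR2 the ratio of the sums of FFGR and FC was 1.00 in place of 1.07. Among the markers, UCP1 was high in MC2 (3366 TPM, others 1317 to 1596) and HOXC9 was high in MC3 (6.94 TPM, others 3.55 to 3.80).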

How the results depend on the processing

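No member was called between FFGR and FC under any alternative run, although 4 and 5 of all transcripts were called with the filter of 1 TPM and with no filter. The number called between males and females was 1, and became 2 with library weights, 3 with no minimum fold and 0 to 2 with 1 library left out (0 without FC1, FC4 or FFGR2, and 2 without MFGR1). It stayed 1 under median-of-ratios scaling, quantile normalization, rescaling without the mitochondrial transcripts and without MC3, but the transcript changed. There ENSOART00020022203, lower in males, was no longer called, and ENSOART00020002217, higher in males, was. For MFGR against MC the number called was 1, and became 0 with the filter of 1 TPM, with no filter and with the replicate block, 3 with median-of-ratios scaling, 2 without the mitochondrial transcripts, 10 with library weights and 0 to 3 with 1 library left out (0 without MC1, MC3, MFGR1, MFGR2 or MFGR3, 3 without MC2 and 2 without FC3). All transcripts called there went from 21 to between 1 and 83 with 1 library left out, to 152 (86 higher, 66 lower) with library weights, to 155 (21 higher, 134 lower) without the mitochondrial transcripts, and to between 4 and 37 under the other alternatives. The cause of these shifts was not tested.

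Of 16 same-numbered pairs of libraries, 4 correlated above 0.1 (range -0.12 to 0.27). Differently numbered pairs were not computed as a reference, so that this check cannot decide whether the replicate numbers pair the fetuses. The replicate block changed no other number of members called. A fit of the compared groups alone has no meaning for males against females, which uses all 16 libraries. With 4 fetuses per group and unknown depth, the spread between fetuses limits each comparison, and the 3 members under 20 TPM have the least signal.

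The summed TPM rescaled without the mitochondrial transcripts was 2514 in MC and 4270.1 in MFGR, and 3498 (FC) and 3654 (FFGR) in females. In MFGR it was 3079.6 under median-of-ratios scaling and 2939 under quantile normalization. With 1 library left out the sums were 1466 to 1608 in MC and 2803 to 2862 in MFGR, and 2265 to 2427 (FC) and 2334 to 2542 (FFGR) in females.

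Of the differences whose sign turned, none was a call. Between FFGR and FC, ENSOART00020002466 became -0.012 without the mitochondrial transcripts and -0.030 with library weights, and ENSOART00020025654 became 0.031 with library weights. Between males and females, ENSOART00020010795 became -0.037 with library weights. Under median-of-ratios scaling and quantile normalization ENSOART00020028055 became 0.071 and 0.22, ENSOART00020041654 0.034 and 0.095, and ENSOART00020035799 0.17 and 0.55 (0.054 without the mitochondrial transcripts). With 1 library left out, differences between FFGR and FC were -0.021 to 0.083 for ENSOART00020002217, -0.097 to 0.10 for ENSOART00020002466, -0.10 to 0.42 for ENSOART00020007414, -0.44 to 0.040 for ENSOART00020019560, -0.12 to 0.18 for ENSOART00020020067, -0.024 to 0.38 for ENSOART00020022203, -0.17 to 0.096 for ENSOART00020025654 and -0.23 to 0.030 for ENSOART00020028055. Between males and females they were -0.0074 to 0.11 for ENSOART00020002466, -0.041 to 0.17 for ENSOART00020010795, -0.42 to 0.047 for ENSOART00020019560, -0.21 to 0.16 for ENSOART00020035799 and -0.033 to 0.097 for ENSOART00020041381. Of all transcripts called between males and females, 288 were higher and 1099 lower, against 554 and 766 under median-of-ratios scaling, and 775 and 627 under quantile normalization.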
